A study of Mus musculus with 2 samples.

Results

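The genes described here make cholesterol from acetyl-CoA, handle it inside cells, and turn it into androgens. They were chosen by name, with earlier results of these data known. Of 39 genes listed, 30 were read by at least 1 probe set that the array's annotation gives to a single gene, as were 12393 genes in all. Those 30 were 17 of 18 sterol synthesis enzymes, 5 of 7 genes for sterol regulation and transport, 5 of 8 steroidogenic genes of Leydig cells, and 3 of 6 redox partners and other steroid enzymes. Acat2, Insig1, Soat1, Srd5a1, Por, Fdxr, Lhcgr, Insl3 and Hsd3b6 were not read in this way and are not analysed here. As a weak check of the label, the 17 sterol enzymes and the Leydig genes Star, Cyp11a1, Cyp17a1, Hsd3b1 and Hsd17b3 were all above the floor on both arrays, a lower limit defined below with the values. Of all 12393 genes, 8091 passed a similar rule based on the floor, and some members, such as Mvk and Hsd17b3, were dim.

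The samples were testes of mice aged 17 days, on a background labelled 129SV and C57BL mixed, either wild type or UBR2-/-, with no treatment named. UBR2 ligates ubiquitin to proteins of the N-end rule pathway, and its loss is known for an arrest of male meiosis. Each genotype had 1 Affymetrix oligonucleotide array (n = 1), and the labels name 2 testes from different littermates for each; no source used here says whether their RNA was pooled. The labels name no cell type specific allele, and whole testis holds germ cells and somatic cells together.

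Cholesterol is built in 2 stages. The mevalonate pathway joins acetyl-CoA units and turns them into the isoprenoid farnesyl pyrophosphate, and the later enzymes close squalene into lanosterol and trim it to cholesterol. The transcription factor SREBF2 switches on most of these enzymes when cell sterol is low. In the testis, Leydig cells of the interstitium move cholesterol into mitochondria through STAR and turn it into testosterone with CYP11A1, HSD3B1, CYP17A1 and HSD17B3. Sertoli and germ cells also make sterols, and the intermediates formed by CYP51 and TM7SF2 are known as meiosis-activating sterols of the gonads.

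The promoters of 4 sterol enzymes are shown because these lay on both sides of 0 in the comparison that follows, Hsd17b7 above it and the others below. Each window runs from 250 bases before to 50 after the start, taken from RefSeq on GRCm38.p6 and written 5′ to 3′ on the strand of the gene. Capitals mark 3 motifs searched on both strands: the sterol regulatory element TCACNCCAC bound by SREBF factors, the NF-Y box CCAAT, seen as its reverse complement in these windows, and the E-box CACGTG.
Hmgcs1, chr13:119690101-119690400, plus strand: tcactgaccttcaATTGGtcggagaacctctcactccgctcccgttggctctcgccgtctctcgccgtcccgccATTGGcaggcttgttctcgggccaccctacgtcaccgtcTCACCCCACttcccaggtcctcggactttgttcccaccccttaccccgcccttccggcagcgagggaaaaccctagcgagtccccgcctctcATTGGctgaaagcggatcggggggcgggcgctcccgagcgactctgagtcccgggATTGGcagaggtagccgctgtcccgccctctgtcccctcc
Idi1, chr13:8885356-8885655, plus strand: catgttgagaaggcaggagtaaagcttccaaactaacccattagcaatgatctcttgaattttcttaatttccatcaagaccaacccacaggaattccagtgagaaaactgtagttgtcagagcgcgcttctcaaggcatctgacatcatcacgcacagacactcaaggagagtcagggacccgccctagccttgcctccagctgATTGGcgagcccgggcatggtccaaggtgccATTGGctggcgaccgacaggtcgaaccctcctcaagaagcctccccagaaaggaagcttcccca
Sc5d, chr9:42264251-42264550, minus strand: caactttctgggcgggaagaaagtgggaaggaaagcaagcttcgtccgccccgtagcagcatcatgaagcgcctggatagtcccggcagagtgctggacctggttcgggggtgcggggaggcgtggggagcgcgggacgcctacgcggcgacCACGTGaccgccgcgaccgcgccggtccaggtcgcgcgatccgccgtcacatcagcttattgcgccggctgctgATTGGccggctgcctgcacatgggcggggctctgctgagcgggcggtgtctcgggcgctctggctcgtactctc
Hsd17b7, chr1:169969156-169969455, minus strand: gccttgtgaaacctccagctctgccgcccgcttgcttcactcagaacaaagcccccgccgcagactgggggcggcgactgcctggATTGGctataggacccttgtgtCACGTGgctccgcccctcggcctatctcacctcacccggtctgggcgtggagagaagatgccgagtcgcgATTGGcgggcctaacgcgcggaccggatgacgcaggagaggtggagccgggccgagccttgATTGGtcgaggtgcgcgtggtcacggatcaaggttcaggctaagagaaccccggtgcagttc
The Hmgcs1 window held the sterol regulatory element, with its first base 137 bases before the start, and 4 NF-Y boxes. The windows of Idi1, Sc5d and Hsd17b7 held 2, 1 and 3 NF-Y boxes, and those of Sc5d and Hsd17b7 also held an E-box. A RefSeq promoter was available for 22 of the 30 members, 14 of them sterol enzymes. The sterol enzymes Sqle, Fdft1 and Fdps had none and were not searched, and Sqle is the lowest sterol enzyme in the comparison that follows. An NF-Y box was present at a start of 14 of these 14 sterol enzymes, against 41.06% of 27025 genes and 37.41% of 32851 promoters of the same length. The 27025 are all genes with a promoter window, not only those compared on the arrays, for which no share was computed. Genes with several windows, such as Dhcr7 and Pmvk, counted if any window held the box. The NF-Y box was also present in 3 of 3 genes of sterol regulation and transport (Npc2, Srebf1 and Srebf2) and 3 of 5 steroid genes (Akr1c14, Cyp11a1 and Hsd3b1). The sterol regulatory element in this spelling was found in 1 of the 14, and in 1.436% of genes. The E-box was found in 3 of the 14 (Dhcr7, Hsd17b7 and Sc5d) and in 8.093% of genes. The full cAMP response element TGACGTCA was found in 0 of the 14 and in 2.031% of genes. The half-site AAGGTCA of steroidogenic factor 1, shown without capitals, was found in Dhcr7 and Hmgcs1, in 0 of the 5 steroid genes, and in 5.38% of genes. Of the 52 matches in all member windows, 0 overlapped another match. A match describes the letters in the window and is not a measured binding site. The enzymes with an NF-Y box include members with log2 ratios on both sides of 0, as given next.

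The question was how the transcripts of each step compared between genotypes. Values are linear probe set signals as deposited, where a probe set is a group of short probes for a transcript, and ratios are UBR2-/- over wild type on the log2 scale. Signals under the 40th percentile of an array (24.4 for wild type and 24.7 for UBR2-/-), the floor, were raised to it. The brightest probe set of a gene was that with the highest mean signal over both arrays. Genes for which this mean was no less than the mean of both floors were compared, and all 30 members passed. Neither genotype had a replicate array, so there was no replicate check and no test, and each difference describes these 2 arrays. As a guide to measurement error, the SD of the log2 ratio of 1 probe set, taken from pairs of probe sets for the same gene, was 0.26 where signals were dim, 0.20 where they were intermediate and 0.16 where they were bright. This SD holds no difference between animals or arrays. The median log2 ratio of all 8091 compared genes was 0.07, with quartiles of -0.17 and 0.28. The targeted gene Ubr2 had signals of 57.2 and 14.3, so it was lower in UBR2-/- by at least 2.32-fold. Only 1 probe set read it, and no source used here places that set relative to the deletion.

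No member was 2-fold apart. Of the 30 members, 0 were 2-fold lower or more and 0 were 2-fold higher or more, where 3.52% and 0.346% of all compared genes were. At a threshold of 1.5-fold on the deposited scale, 1 member was lower, Cyp11a1, against 7.71% of all genes, and 1 was higher, Star, against 4.25%. These counts turn on the processing: with spike-in scaling 9 members were 1.5-fold lower and 0 higher, against 20% and 0.47% of all genes, Cyp11a1 was not past 1.5-fold with quantile normalization or with a pseudocount in place of the floor, and Star was not past it with the mean over probe sets. Measured by probe set error, 6 members (20%) lay more than 2 SDs below the all-gene median and 2 (6.67%) lay more than 2 SDs above it, where 14.1% and 6.65% of all genes did. The 6 were Cyp11a1, Idi1, Sqle, Fdft1, Akr1c14 and Hmgcs1, and the 2 were Star and Npc2. The other 22 lay within that range. These shares are near the background for so few genes, and what follows describes small differences. Ratios are read against the all-gene median because scaling on the spike-in controls in place of the deposited scaling moves that median by -0.35. Under it 12 members turn from above to below 0: Pmvk, Mvd, Cyp51, Tm7sf2, Nsdhl, Ebp, Srebf1, Srebf2, Scarb1, Cyp17a1, Hsd3b1 and Hsd17b4.

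**Figure D1:**
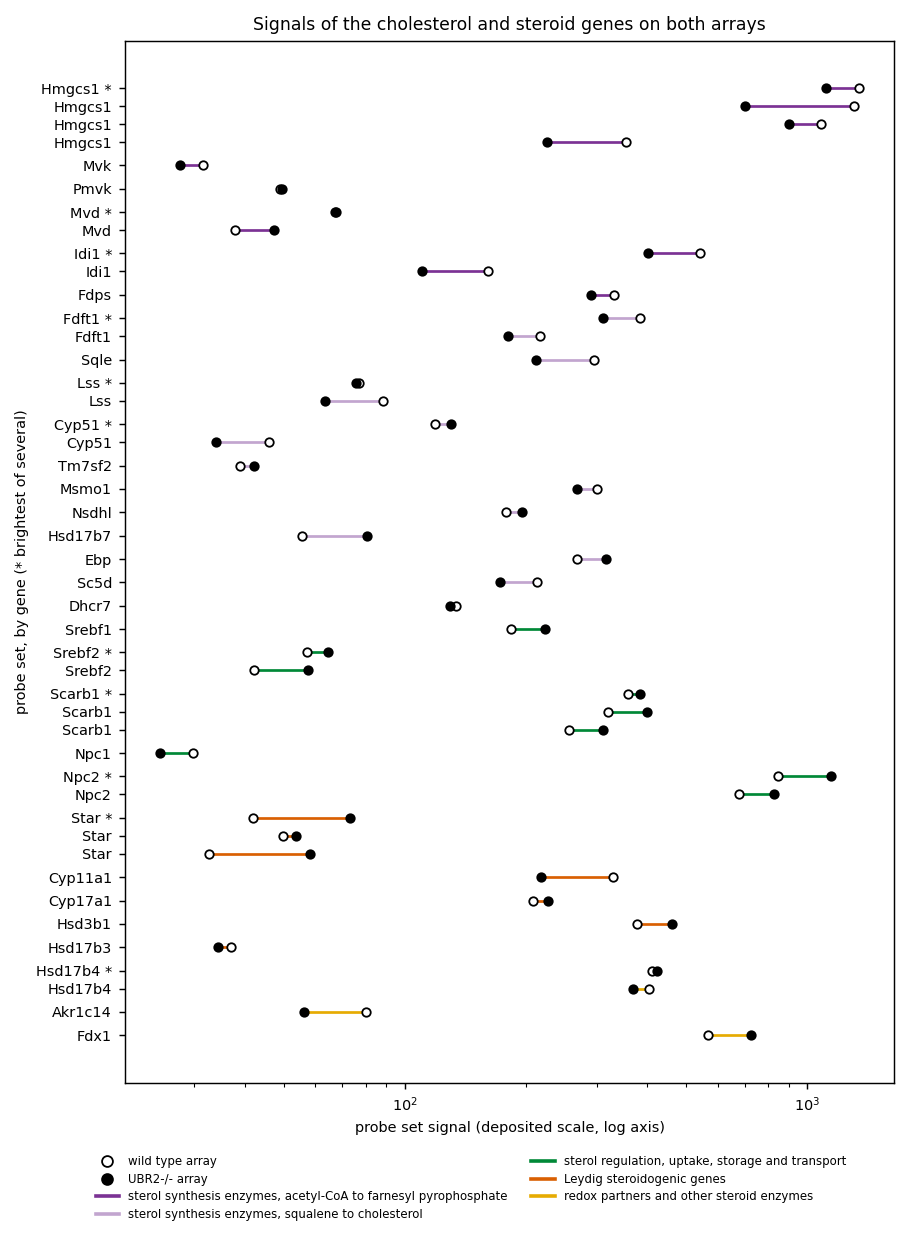
Probe set signal on the deposited scale (log axis) for the 45 member probe sets that passed the floor rule, by gene in pathway order. Open points are the wild type array, filled points the UBR2-/- array, and line colour gives the role. The filled points of Hmgcs1, Idi1, Sqle and Cyp11a1 lie to the left of the open ones, and those of Npc2 and Star to the right.

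The early enzymes of sterol synthesis were lower on the UBR2-/- array or close to all genes. By their brightest probe sets, all 6 compared enzymes between acetyl-CoA and farnesyl pyrophosphate lay below the all-gene median, where 50% of all genes do. Pmvk and Mvd lay only -0.06 from that median. With the mean over probe sets Mvd was above it, at 0.17 against 0.06. The median log2 ratio of the 6 was -0.19, with a range of -0.43 to 0.01. Hmgcs1, the synthase that makes HMG-CoA, was read by 4 probe sets. Its brightest went from 1348.5 in wild type to 1116.8 in UBR2-/-, a log2 ratio of -0.27. The other 3 went from 1306.7 to 699.7, from 1081.9 to 901.8 and from 355 to 226.1, with log2 ratios of -0.90, -0.26 and -0.65. All 4 were lower on the UBR2-/- array, and they disagreed by 0.64 on how much. The smaller differences came from the probe sets whose names end in _x_at and _a_at, which can bind several transcripts.

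Idi1, the isomerase that makes the reactive isoprenoid unit, gave 541.4 and 401.3, a signal 1.35-fold lower in UBR2-/-. Its second probe set went from 160.9 to 110.4, 1.46-fold lower. The 2 probe sets lay close together at log2 ratios of -0.43 and -0.54, and 11% of compared genes had a lower ratio than the brighter of them. Fdps, which joins isoprenoid units into farnesyl pyrophosphate, had 330.3 and 289.5, a log2 ratio of -0.19. The kinase gene Mvk was dim, with 31.5 and 27.6 and the same log2 ratio of -0.19, less than its SD of 0.26. Pmvk, the next kinase, had 49 and 49.5 (0.01). Mvd, the decarboxylase after it, had 66.9 and 67.5 (0.01), and its dimmer probe set had 37.9 and 47.3 (0.32). By their brightest probe sets Idi1 and Hmgcs1 lay lowest within the mevalonate pathway, followed by Mvk and Fdps. The dim Pmvk and Mvd lay near the all-gene median. Hmgcs1 lay below Mvk by less than the SD of 0.26.

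The later enzymes went both ways. Of the 11 compared between squalene and cholesterol, 6 lay below the all-gene median and 5 above it, with a median of -0.03 and a range of -0.48 to 0.54. Those that form and oxidise squalene were lower. Fdft1, squalene synthase, had 383.4 and 311.6 in its brightest and 216.4 and 180.4 in its second probe set, log2 ratios of -0.30 and -0.26. Sqle, squalene epoxidase, had 295.6 and 211.8 in its single probe set, 1.40-fold lower. Lss, which closes the ring to lanosterol, depended on the probe set. The one brightest by a narrow margin in the mean of both arrays had 77.1 and 75.5 (-0.03). The other, brighter on the wild type array, had 88.4 and 63.5 (-0.48).

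The enzymes around and after the meiosis-activating sterols lay on both sides of the all-gene median. Cyp51, which demethylates lanosterol, had 118.6 and 130.3 in its brightest probe set (0.14) and 45.9 and 33.9 in a dimmer one (-0.44), so its probe sets lay on both sides of 0. Tm7sf2, a sterol reductase of the next step, was dim at 39 and 42.2 (0.11). Msmo1, the methyl sterol oxidase, had 300.7 and 268 (-0.17). Sc5d, the sterol desaturase near the end of the pathway, had 212.6 and 172.3 (-0.30), and Dhcr7, the final reductase, had 134.2 and 129.2 (-0.05). The highest was Hsd17b7, the keto reductase of the sterol demethylation complex, with 55.4 and 80.6, 1.45-fold higher. Hsd17b7 was read by 1 probe set above the floor rule, and its distance from the all-gene median was 1.76 SDs.

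The X-linked members Nsdhl and Ebp both lay above the all-gene median. Nsdhl, the decarboxylating dehydrogenase of the same complex, had 178.6 and 195.7 (0.13). Ebp, the sterol isomerase, had 268 and 316.6 (0.24). The 274 compared X-linked genes had a median of 0.35 on these arrays, against 0.06 for autosomal genes, so both lay below the X-linked median. Without them the median of the sterol enzymes was -0.17 over 15 autosomal genes, of which 12 lay below the all-gene median, against -0.05 over all 17. What chromosome location contributed was not tested.

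**Figure D2:**
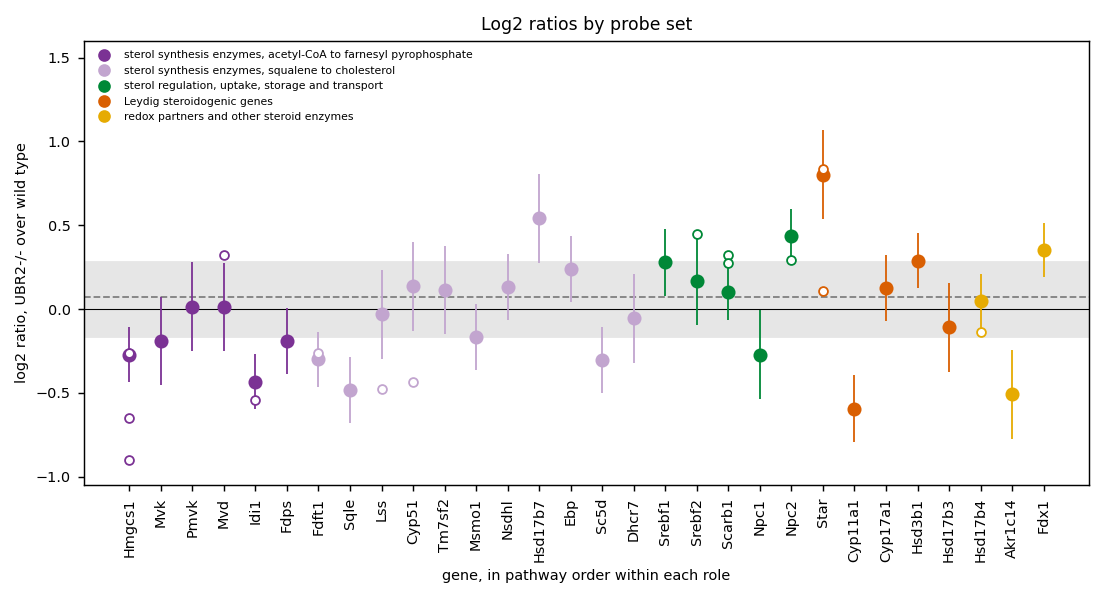
Log2 ratio (UBR2-/- over wild type) of each member probe set, with genes in pathway order within each role. Large filled points are the brightest probe set with a bar of 1 probe set SD, open points are other probe sets, the dashed line is the median of all compared genes (0.07) and the grey band their quartiles (-0.17 to 0.28). Hmgcs1, Lss, Cyp51 and Star have probe sets that lie far apart.

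Genes that sense and move sterols mostly lay above the all-gene median, but only Npc2 by more than 2 SDs. Of the 5 compared, 4 lay above the all-gene median, and their median was 0.17, with a range of -0.27 to 0.44. Npc2, a lysosomal protein that hands cholesterol out of the lysosome, had 845.7 and 1144.8 in its brightest and 675.8 and 829 in its second probe set, log2 ratios of 0.44 and 0.29. Scarb1, the receptor that takes up cholesterol esters from lipoproteins, was read by 3 probe sets, with 358.9 and 384.5, 320.3 and 400.9, and 256.4 and 310.6. All 3 log2 ratios, 0.10, 0.32 and 0.28, lay above the all-gene median. The transcription factor gene Srebf2 had 57.2 and 64.3 (0.17) and, in a dimmer probe set, 42.2 and 57.5 (0.45). Its relative Srebf1, better known for fatty acid synthesis, had 183.7 and 222.9 (0.28). The exception was Npc1, the membrane partner of NPC2, which was dim at 29.8 on the wild type array and under the floor on the UBR2-/- array, at 24.6, and so at least 1.21-fold lower.

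Among the Leydig steroidogenic genes, the first steps lay farthest apart in opposite directions. The 5 compared genes had a median log2 ratio of 0.12 and a range of -0.59 to 0.80, with 3 above and 2 below the all-gene median. Star, which carries cholesterol into mitochondria, was dim, and its probe sets had 41.9 and 73, 32.6 and 58.2, and 49.8 and 53.7. These are log2 ratios of 0.80, 0.84 and 0.11: all 3 were higher in UBR2-/- on the deposited scale, and 1 of them hardly so. The one at 0.80 stood for Star because it was brightest by the mean of both arrays. On the wild type array alone the brightest was the one at 0.11. Cyp11a1, which cuts the cholesterol side chain, had 329.4 and 218.3 in its single probe set and was 1.51-fold lower. Its distance from the all-gene median was -3.37 SDs, the lowest of the members, and 7.56% of compared genes had a lower ratio.

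Further along, Hsd3b1, the dehydrogenase that makes progesterone from pregnenolone, had 377.4 and 461.3 and was 1.22-fold higher on the deposited scale. Cyp17a1, which makes the androgen precursor, had 208 and 226.8 (0.12). Hsd17b3, which makes testosterone and is a mark of adult Leydig cells, was dim at 37.1 and 34.4 (-0.11). The remaining steroid enzymes were 3. Fdx1, the ferredoxin that gives electrons to CYP11A1, had 568 and 725.5 (0.35). Akr1c14, which reduces dihydrotestosterone and is known from immature Leydig cells, had 79.9 and 56.2 (-0.51), 1.42-fold lower. Hsd17b4, a peroxisomal enzyme of fatty acid oxidation that can also oxidise estradiol, had 410.6 and 424.6 (0.05) in its brightest and 405 and 368.1 (-0.14) in its other probe set. CYP11A1's own gene and that of its electron donor thus lay on opposite sides of the all-gene median.

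Set side by side, the 17 sterol enzymes had a median of -0.05 with 12 below the all-gene median, and the 5 Leydig genes had 0.12 with 2 below it. The sterol median minus that of all genes was -0.13, and over 10 alternatives it ran from -0.26 to -0.12. It lay between -0.26 and -0.23 with spike-in scaling, the floor at the 60th percentile, the mean over probe sets, only probe sets not named _s_at, _x_at or _a_at, or no X-linked members. The difference between the 2 groups, sterol minus Leydig, was -0.18. It ran from -0.32 to -0.17 over 10 processing alternatives and kept its sign in each. Scaling to the array median or the spike-in controls shifts all genes alike. Such scaling could turn this sign only through the floor or the choice of probe set. Probe sets shared by several genes were left out. Those above the floor listed for Insl3 and Hsd3b6 had -0.52 and -0.69, below the Leydig median. The sign of the difference depends on leaving them out. The members of each group spread more widely than the group medians differ: sterol enzymes from -0.48 to 0.54 and Leydig genes from -0.59 to 0.80. On these arrays the groups overlapped, and the lowest and the highest member were both Leydig genes.

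**Figure D3:**
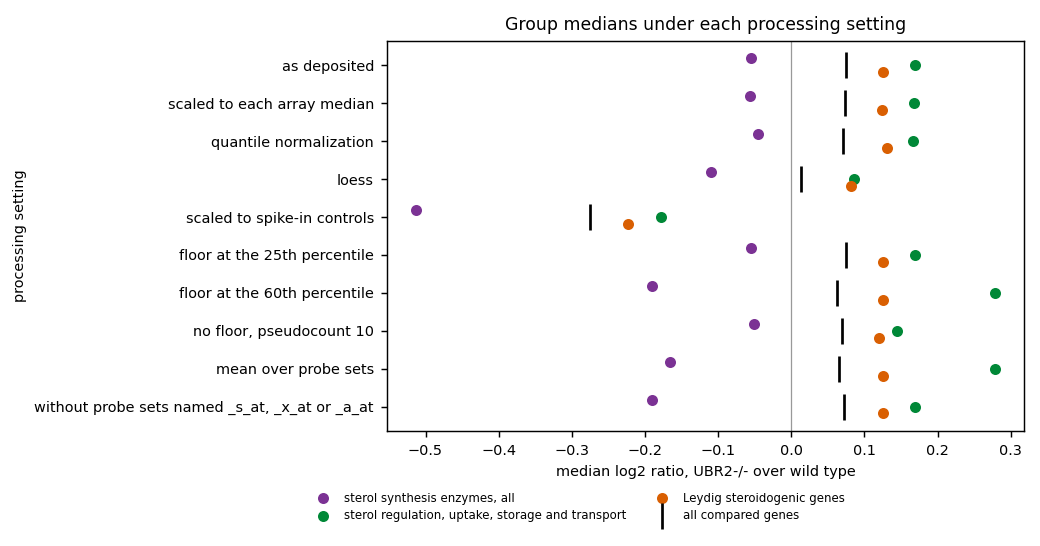
Median log2 ratio of the sterol enzymes, the sterol regulation and transport genes and the Leydig genes under each processing setting, with a black mark for all compared genes. The sterol enzymes lie left of all genes in every setting shown, and spike-in scaling moves all points to the left, the sterol enzymes most, since the brightest probe set of Lss is then another one.

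The wider lists hold other genes of the same pathways. In the wider sterol list 16 of 27 genes were compared, and 0 were past 1.5-fold in either direction. Of the 16, 10 lay above and 6 below the all-gene median, and the median was 0.19. On the deposited scale 12 were above 0. The highest of these, named after their values were seen, were the dim Abcg1 at 0.33, Dhdds at 0.26 and Scap at 0.25. Dhdds ranged down to -0.46 over 3 probe sets. The 4 below 0 on the deposited scale, named after their values were seen, were Lbr, a nuclear envelope protein that is also a sterol reductase, with 712.6 and 505.2 (-0.50), Insig2, which holds SREBF factors in the endoplasmic reticulum, at -0.40, the sterol carrier Stard4 at -0.34, and Ggps1, a synthase that draws on farnesyl pyrophosphate, at -0.15. Insig2 was lower in 3 of 3 probe sets, from -0.42 to -0.26. In the wider steroid list 10 of 23 genes were compared, 0 were past 1.5-fold, 7 lay above the all-gene median and 3 below, and the median was 0.23. Nr5a1, the steroidogenic factor gene of Leydig and Sertoli cells, had 143.1 and 186.1 (0.38). Tspo, a mitochondrial membrane protein long tied to steroid synthesis, had 0.35 in its brightest of 3 probe sets, which ranged down to -0.38.

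Cell type markers differed too, and their values stand here beside the results. Of 11 read markers of pachytene and later spermatocytes 10 were compared, and 9 were at least 2-fold lower, with a summed signal of 8767.6 in wild type and 1480 in UBR2-/-. Among them Ldhc had a log2 ratio of -3.11, Hspa2 -0.90 and Adam5, the farthest from 0, -4.57. None was at 0, but Pgk2, Adam3 and Ccna1 were below the floor on the UBR2-/- array, with signals of 4.1, 13.7 and 9.3. Of 9 compared markers of early meiotic prophase 1 was past 2-fold, Spo11 at -1.27, with Sycp1 at -0.11 and Sycp3 at 0.02, and the summed signals were 9321.1 and 9014.3. Spermatogonia markers summed to 3282.7 and 3483.8 over 7 genes, with Zbtb16 at 0.02, Kit at -0.07 in the brighter of its probe sets but 0.97 in the dimmer, and Id4, the farthest from 0 and the only gene of that list past 2-fold, at -1.07 in its brightest of 3 probe sets, which ranged up to -0.65.

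Most somatic markers lay above the all-gene median. Sertoli markers summed to 12429.8 and 15903.5 over 11 genes with a median of 0.32, among them Sox9 at 0.29, Wt1 at 0.41 and the dim Amh at -1.23, the 1 past 2-fold. Peritubular myoid markers had a median of 0.50 over 6 genes and sums of 2208.1 and 3149.4, with Acta2 at 0.49 and Myh11, the farthest from 0, at 0.64. Leydig and interstitial markers outside the members had a median of 0.29 over 8 genes and sums of 3296.4 and 3628.3, with Pdgfra at 0.46, Nr2f2 at 0.39 in the brighter of its probe sets but -0.04 in the dimmer, and Ptgds, the farthest from 0, at 0.54. Macrophage markers had a median of -0.04 over 6 genes and sums of 652.1 and 619.9, with Csf1r at -0.02 in its brightest of 3 probe sets, which ran from -0.20 to 0.13, Adgre1 at -0.24 and Ptprc, the farthest from 0 and under the floor on the wild type array, at least 1.54-fold higher. The part of these cell types in the sterol and steroid values was not tested. In whole testis RNA, fewer cells of a type and less RNA per cell cannot be told apart.

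**Figure D4:**
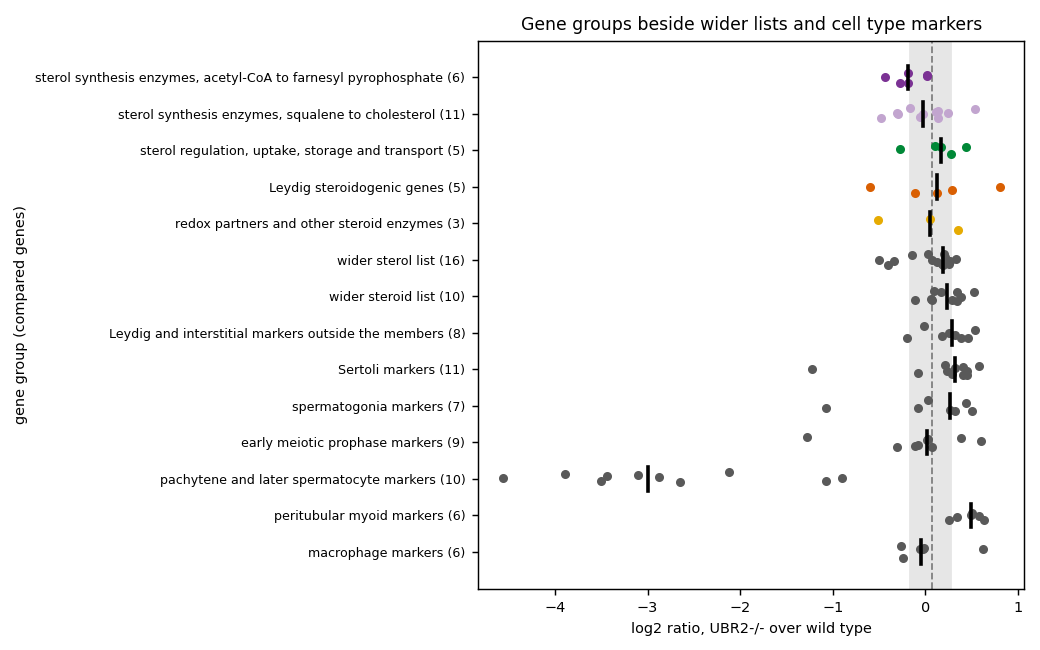
Log2 ratios of the compared genes in each member group (coloured), the wider lists and the cell type marker lists (grey), with a black bar at each median and the number of genes in brackets. The dashed line and grey band are the median (0.07) and quartiles (-0.17 to 0.28) of all compared genes. The spermatocyte markers lie far to the left, while the member groups straddle the band.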

How the data were processed

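Total RNA of testes was labelled with biotin and hybridised to 1 array per genotype, per the labels. The values are linear probe set intensities (signals) that the authors deposited. Per the submitters' processing notes MAS5 was used; no source used here gives its version or settings. Both arrays had a 2% trimmed mean of 150.04, and this scaling was kept. The number of arrays limits the precision.

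Of 22626 probe sets that are not controls, 20380 had 1 gene symbol, 691 had several and 1555 had none in the array's annotation, part of which may be outdated; those with 1 were used. Symbols were updated through Entrez identifiers to the GRCm38.p6 gene table. The brightest probe set by the mean of both arrays stood for a gene, so the choice used the compared signals, and the floor was the 40th percentile. No test was possible with 1 array per group, and counts use 2-fold and 1.5-fold thresholds.

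All members read are named. From the wider lists the rule names genes past 1.5-fold and some fixed genes, of which Nr5a1 and Tspo are reported here, and from each marker list the first 2 compared genes and that farthest from 0. Members and lists were chosen with earlier results of these data known. Calculations used pandas 2.3.3 and statsmodels 0.14.6 and were tested on simulated data. Alternatives were 4 other scalings, 2 other floors, no floor but a pseudocount of 10, averaging the probe sets of a gene, dropping probe sets named _s_at, _x_at or _a_at, a 1.5-fold threshold, and dropping X-linked members.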

Additional observations from a re-analysis of the deposited data

How the results depend on the processing

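No paired analysis was possible because each genotype has 1 array. Single probe sets and the number of arrays limit these values. No member was past 2-fold under any scaling, floor or probe set choice tried. At 1.5-fold on the deposited scale 1 was lower and 1 higher. These 1.5-fold counts under the other settings were added after seeing the data: spike-in scaling gave 9 lower and 0 higher, quantile normalization and the pseudocount each gave 0 lower, loess and the choice without probe sets named _s_at, _x_at or _a_at each gave 2 lower, and the floor at the 60th percentile, which leaves Star out, and the mean over probe sets each gave 0 higher. The spike-in controls moved all 30 members by more than their probe set SD and turned 12. In each of the 8 other scaling, floor and probe set settings at most 2 members moved that far and at most 2 changed sign, Pmvk and Mvd with loess and Cyp51 and Hsd17b4 with the mean over probe sets. Hmgcs1 went to -0.52 with the mean over probe sets and to -0.90 without probe sets named _s_at, _x_at or _a_at, Lss to -0.48 without them, and Cyp51 to -0.15 with the mean. With the floor at the 60th percentile 19 members were left.

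Scaling to the spike-in controls gave medians of -0.54 for the early and -0.40 for the late sterol enzymes, -0.51 for both together, -0.18 for sterol regulation and transport, -0.22 for Leydig genes, -0.30 for the other steroid enzymes, -0.26 for all steroid genes, -0.33 for all members, -0.16 for the wider sterol list and -0.12 for the wider steroid list. The construction lowers every gene on the UBR2-/- array. Of all compared genes, 524 were then 2-fold lower and 7 higher. Genes 2-fold higher numbered 17 with loess, 132 with the floor at the 25th percentile, 8 with it at the 60th (152 lower) and 17 with the pseudocount, against 28 (285 lower). At 1.5-fold, 624 were lower and 344 higher.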

Other observations

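Some probe sets that the annotation gives to several genes lie next to the members and were left out of the counts. The one listed for both Jak3 and Insl3 that was above the floor went from 632.6 in wild type to 442.1 in UBR2-/-, a log2 ratio of -0.52. The one listed for Hsd3b6, Hsd3b3 and Hsd3b2, had 261.6 and 162.1, a log2 ratio of -0.69. Neither can be assigned to 1 gene, and neither entered the counts and medians above.

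In the wider sterol list, the probe sets of Lipa, the lysosomal lipase that frees cholesterol from its esters, disagreed. The brightest had 93.8 and 102.6 (0.13), and a dimmer one had 72.4 and 30.6 (-1.24). Mbtps1, a protease that activates SREBF factors, had log2 ratios from 0.23 to 0.89 over 3 probe sets, with the highest from a dim one of 28.2 and 52.1. These genes were named after their values were seen.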
